A study of Mus musculus with 12 samples.

Results

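The data described here are the baseline transcriptome of the adult mouse trigeminal ganglion, taken from the control animals of a study of the transcriptional regulator Prdm12. The members are the 6 libraries labelled control, of 12 in the series, and all 55416 gene identifiers of their count files. The animals are adult mice of strain C57Bl6, and the series' design text places the ganglia a month after injection. Control 1 is a female with genotype Rosa26Cre ERT2; Fl/+, and control 2 a female with genotype +/+; Fl/+. Control 3 is a male with genotype +/+; Fl/+, and control 4 a male with genotype Rosa26Cre ERT2; +/+. Controls 1 to 4 received tamoxifen, the drug that activates CreERT2. Controls 5 and 6 are males with genotype Rosa26Cre ERT2; Fl/Fl, the genotype of the knockouts, and received corn oil in its place. No sample lacks an injection, so an untreated baseline is not measured. Rosa26 drives Cre in nearly all cell types, and in control 1 the floxed Prdm12 allele may have been deleted. The labels do not say whether a sample is 1 animal or a pool, so every spread and p-value given here measures the difference between these samples.

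The trigeminal ganglion supplies sensation to the face, mouth, eye surface and meninges, and its neurons send their axons there. These neurons include nociceptors, which sense damage and heat and often release neuropeptides, cold and itch neurons, and large myelinated mechanoreceptors. Satellite glia wrap each cell body and Schwann cells wrap the axons, so RNA from the whole ganglion mixes neurons with glia, connective tissue, vessels and immune cells. In such RNA, fewer cells of a type and less RNA per cell cannot be told apart.

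The 6 libraries held 14347899 to 20967717 counts each, and 3 counts, taken as the limit that a count of 0 allows, correspond to 0.143 to 0.209 CPM, the count divided by the library's total and scaled to a common size. Levels are CPM after TMM scaling, and levels of different genes are compared as CPM per kilobase of annotated exon (CPM per kb), given as mean ± SD over 6 libraries. Mitochondrial transcripts took 2.45% to 2.98% of counts. Control 3 stood apart in a set of airway and gland genes, and control 6 in genes of neutrophils. The chi-square per degree of freedom between the counts of a pair of libraries was 14.5 to 28.8 for pairs with control 6. It was 7.77 to 17.2 for the others, with controls 3 and 4 the closest pair. These ranges overlapped, and the measure grows with the total count, which was largest in control 6. By Spearman correlation controls 4 and 5 were closest (0.9922, against 0.9914 for controls 3 and 4) and controls 3 and 6 furthest (0.9759). Control 3 held genes of airway epithelium and glands, a list drawn up after the values were seen, with a summed level of 1881 CPM against 84.5 to 329 in the others. Control 6 held genes of neutrophils, with 1378 CPM against 76.6 to 178. Their part in the levels of other genes was not tested.

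Expression was broad. A level of at least 1 CPM in all 6 libraries was reached by 14463 gene identifiers (26.1% of all), of which 13499 are protein coding. A further 2208 reached it in some libraries only, and 22042 had no count in any. The mean was at least 10 CPM for 10509 genes, at least 100 CPM for 2353 and at least 1000 CPM for 78. Between 1075 and 1175 genes held the upper 50% of counts in a library, so no single gene dominated.

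Of the 20 largest CPM values, a scale that favours long transcripts, 5 belonged to mitochondrial genes and many others to genes of the neuronal cytoskeleton and myelin. The microtubule-associated protein gene Map1b led the nuclear genes with 5269 ± 490.2 CPM, followed by the myelin basic protein gene Mbp with 4519 ± 1845 CPM. The neurofilament genes Nefm, Nefl and Nefh, which build the cytoskeleton of large axons, had 3464, 2697 and 2412 CPM. Prune2 (3150.2 CPM), Ndrg4 (2869), the noncoding RNA Meg3 (2853) and the lipid carrier gene Apoe (2722) were also among them. The spectrin gene Sptan1, Spock2, Ywhag and Fstl1 had 2484, 2429, 2279 and 2231 CPM. Per kb the order changed. The gamma-synuclein gene Sncg rose to the top of the nuclear genes with 1797 ± 148 CPM per kb, ahead of Apoe (1273 ± 57.4) and the neuronal tubulin gene Tubb3 (1082 ± 94.1).

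Some zeros cannot be read as absence. The mitochondrial genes mt-Co2, mt-Co3, mt-Atp6, mt-Atp8 and mt-Nd4l are listed at 0 in all 6 libraries beside mt-Co1 at 7599.6 CPM. Ribosomal protein genes, which every cell uses, ranged from Rplp1 at 307 to Rpl5 at 0.948 CPM per kb. How reads that match several places were counted is not given in the sources used here. Levels of genes with near-identical copies, among them the haemoglobin and Mrgpr families, are therefore uncertain. Reads were not stranded, so reads of overlapping genes are also uncertain: other annotated genes cover 32.8% of the exon length of Nefl and 39.4% of that of Klf7.

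The 5 genes chosen to check the ganglion's identity were all expressed in every library. Nefh, the heavy neurofilament of myelinated neurons, had 604 ± 60.7 CPM per kb, with 531 in control 1, a median of 612 and 670.4 in control 5. Calca, which encodes the migraine peptide CGRP, had 462 ± 27.8, with 423 in control 6, a median of 465 and 507 in control 4. Scn10a, the tetrodotoxin-resistant sodium channel of nociceptors, had 108 ± 7.9, with 95.7 in control 6, a median of 108 and 118 in control 5. These neuronal genes thus stayed within a narrow band. Mrgprd, a receptor of non-peptidergic skin nociceptors, had 28.9 ± 3.63, with 23.1 in control 6, a median of 30.4 and 32.3 in control 4. Fabp7, a fatty acid binding protein of satellite glia, had 173 ± 65.5, with 96.8 in control 6, a median of 171 and 246 in control 1. Fabp7 was the least even of the 5, and its order over the libraries is taken up with the clock genes.

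All 17 pan-sensory neuron genes had at least 1 CPM in all libraries. After Sncg and Tubb3 came the deubiquitinase gene Uchl1 (974 ± 95.1 CPM per kb), Nefl (798 ± 57) and Prph (639 ± 81.8), which encodes peripherin, the intermediate filament of small neurons. The summed level of these genes was 19581, 20076, 22119, 23174, 21770.4 and 18683 CPM in controls 1 to 6. It was lowest in control 6, as it was in 19 of 20 lists of neuronal genes (classes, channels, receptors, peptides, transmitters and regulators). Across those 20 lists the library with the highest sum was 1.06 to 1.59 times the one with the lowest, and the widest was that of cold neurons. Sums rest mainly on the highest members, and some lists share genes. With each gene given equal weight, as centred log2(CPM + 1), control 6 was still lowest for pan-sensory (-0.164) and Mrgprd nociceptor genes (-0.249), among others. By that measure control 6 was the highest library for mechano, proton and ATP channels (0.0616), neuropeptides (0.0814), G protein-coupled receptors (0.0464), migraine drug targets (0.136) and transmitter genes (0.206).

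Genes of each sensory class were present. Among Mrgprd nociceptor genes all 11 passed 1 CPM throughout, led by the ATP-gated channel gene P2rx3 (62.2 ± 4.63 CPM per kb), Cd55 (59.1 ± 6.21) and Mrgprd. Among peptidergic nociceptor genes all 13 did, led by Calca. Receptor and peptide genes used to mark itch neurons were also present. Mrgpra3, a receptor for the itch agent chloroquine, had 5.1 ± 0.632 CPM per kb, Mrgprx1 7.18 and Mrgprb4 11.6. Nppb, the peptide that signals itch in the cord, had 7.22 ± 1.6, Sst 5.76 ± 1.34 and the interleukin receptor gene Il31ra 3.8 ± 0.541. For C low-threshold mechanoreceptors, which sense gentle stroking, the tyrosine hydroxylase gene Th had 4.47 ± 0.479, the glutamate transporter gene Slc17a8 1.84 and Fam19a4 3.98. Large myelinated neurons were marked by Ldhb (272 ± 10.5 CPM per kb), Spp1 (107 ± 25.1) and the calcium buffer gene Pvalb (83.5 ± 6.08), whereas Runx3, a proprioceptor regulator, had 1.86.

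Regulators of sensory neuron identity remained on in the adult ganglion. Of 24 listed genes, 22 had at least 1 CPM in all libraries. The list holds Ret, a receptor rather than a DNA-binding factor, which was highest with 114 ± 12.3 CPM per kb. Prdm12, which nociceptors need to form, had 42.9 ± 11.5, followed by the homeodomain factors Isl1 (38.9 ± 3.37), Tlx2 (36.3 ± 7.52), Pou4f1 (33.2 ± 4.38) and Tlx3 (31.8 ± 5.46) and the zinc finger factor Klf7 (33.7 ± 3.29). From Prdm12 to Tlx3 each gene's range overlapped that of the next in order. Prdm12 measured 87.9, 118, 118, 122, 133 and 56.6 CPM in controls 1 to 6. Control 6 stood lowest, below control 1, in which 1 allele may have been deleted. Gata3, with 0.142 CPM per kb, was near 0.

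Hox genes, which mark position in the hindbrain and trunk, were nearly silent. Of 39 genes 37 had a mean below 1 CPM, and 12 had no count in any library. The exception was Hoxd1, with 14.5 ± 2.09 CPM per kb, or 26.9 CPM. It measured 11.7 in control 1, a median of 14 and 17.3 in control 5, a level near that of the sensory factors Mafa (13.6 ± 2.56) and Pou4f3 (11.5 ± 1.03). The other gene above 1 CPM was Hoxd8, with 1.34 ± 0.274 CPM per kb. Its range lay wholly below that of Hoxd1.

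**Figure D1:**
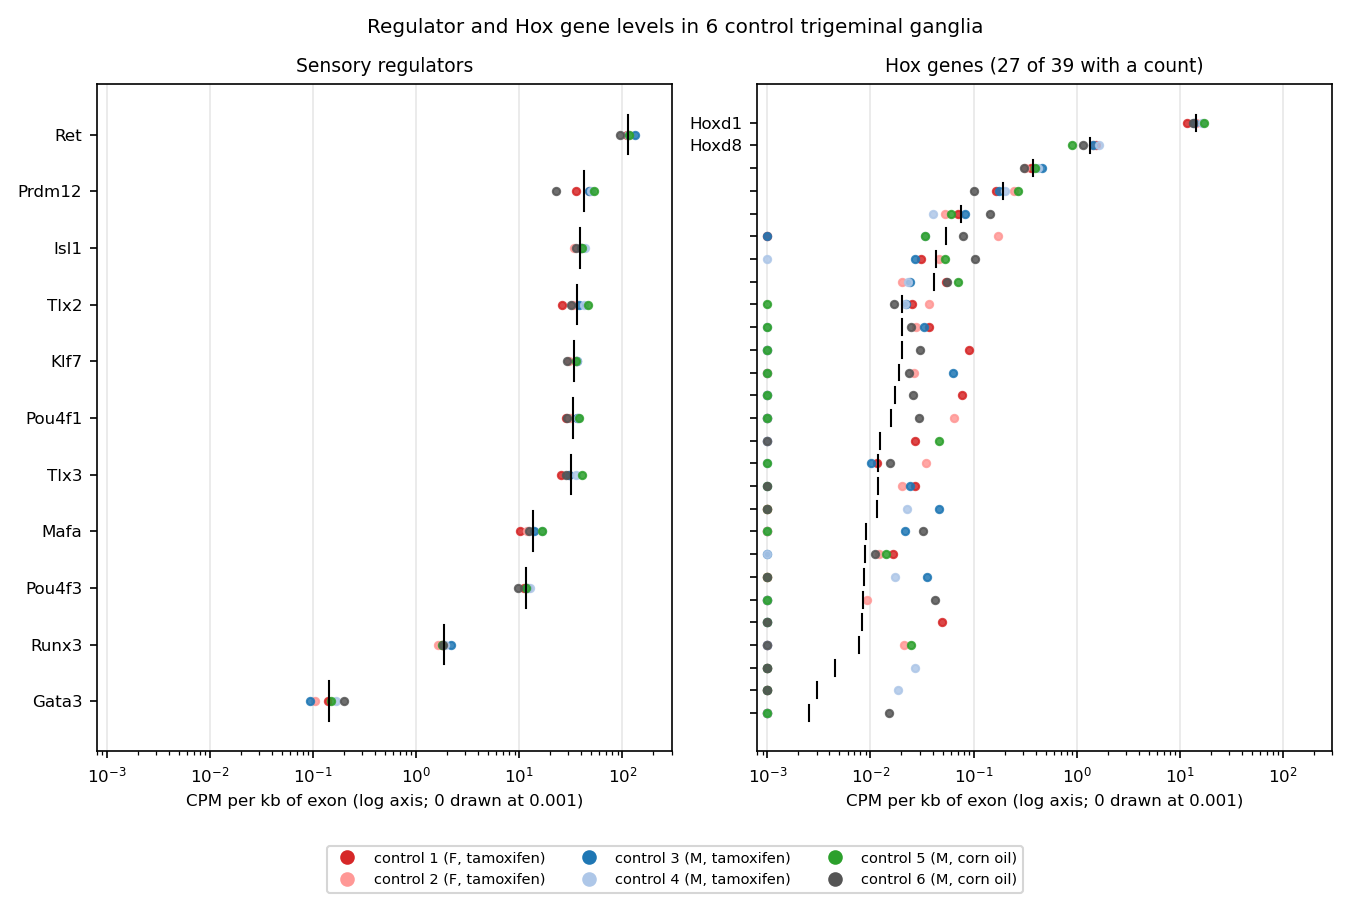
Level in CPM per kb of exon (log axis) of the sensory regulator genes named in the text (left) and of the 27 Hox genes with a count, of which Hoxd1 and Hoxd8 carry a name (right), with 0 drawn at the left edge, 1 coloured dot per control library as keyed and a black bar at the mean. Hoxd1 at 14.5 CPM per kb lies beside Mafa and Pou4f3, and 37 of 39 Hox genes have a mean below 1 CPM.

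Sodium channel genes formed a ladder of levels. All 14 had at least 1 CPM throughout. The beta subunit gene Scn4b had the highest mean, 147 ± 12.5 CPM per kb. Of the pore-forming subunits, Scn10a was highest at 108. Scn11a, which sets the resting excitability of nociceptors, followed with 65.4 ± 5.21, with 57 in control 6, a median of 66.9 and 71.4 in control 5. Scn9a, whose loss abolishes pain in people, had 42.1 ± 4.71, with 37.2 in control 6, a median of 40.9 and 48.9 in control 1. The ranges of Scn10a, Scn11a and Scn9a did not overlap. Scn1a (23.4 ± 2.49) and Scn8a (21.8 ± 2.17), the subunits of fast myelinated axons, did overlap. Scn3a, a channel of embryonic neurons, was lowest with 0.699 ± 0.115.

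Among TRP channels, which sense temperature and irritants, 17 of 22 genes had at least 1 CPM in all libraries. The menthol and cold receptor gene Trpm8 was highest in the mean with 33.5 ± 6.94 CPM per kb. It had 22.2 in control 6, a median of 34.7 and 41.4 in control 4. The capsaicin and heat receptor gene Trpv1 had 21.8 ± 1.79, with 19.7 in control 6, a median of 21.4 and 24.6 in control 4. The mustard oil receptor gene Trpa1 had 20.6 ± 3.09, with 17.2 in control 2, a median of 20.1 and 24.8 in control 4. Trpv1 and Trpa1 did not differ beyond their spread, and Trpm8 exceeded Trpv1 in all 6 libraries although their ranges overlapped. Trpv2 (14.1 ± 1.23) followed. Trpm3, another heat sensor, had 3.33 ± 0.286, the skin channel gene Trpv3 had 0.317, and Trpv5 had no count. Trpc2 is also listed at 0, but other annotated genes cover 100% of its exon length, so its 0 cannot be read as absence.

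Channels for pressure, acid and ATP were led by Asic3, the acid sensor of muscle and dental afferents, with 96.8 ± 6.94 CPM per kb and 88.4 in control 6, a median of 96.5 and 105 in control 4. P2rx3 was next with 62.2 ± 4.63, and its range lay below that of Asic3. Piezo2, the touch channel, had 30.9 ± 1.67, with 27.8 in control 6, a median of 31.4 and 32.5 in control 3. Its relative Piezo1, a sensor in vessels, had 0.656 ± 0.0792. The ranges of the Piezo genes did not overlap. P2rx2, which can pair with P2rx3, had 0.874 ± 0.178. Tmem63b (27.3 ± 2.4) and Asic1 (21.1 ± 2.96) lay between Piezo2 and the rest.

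**Figure D2:**
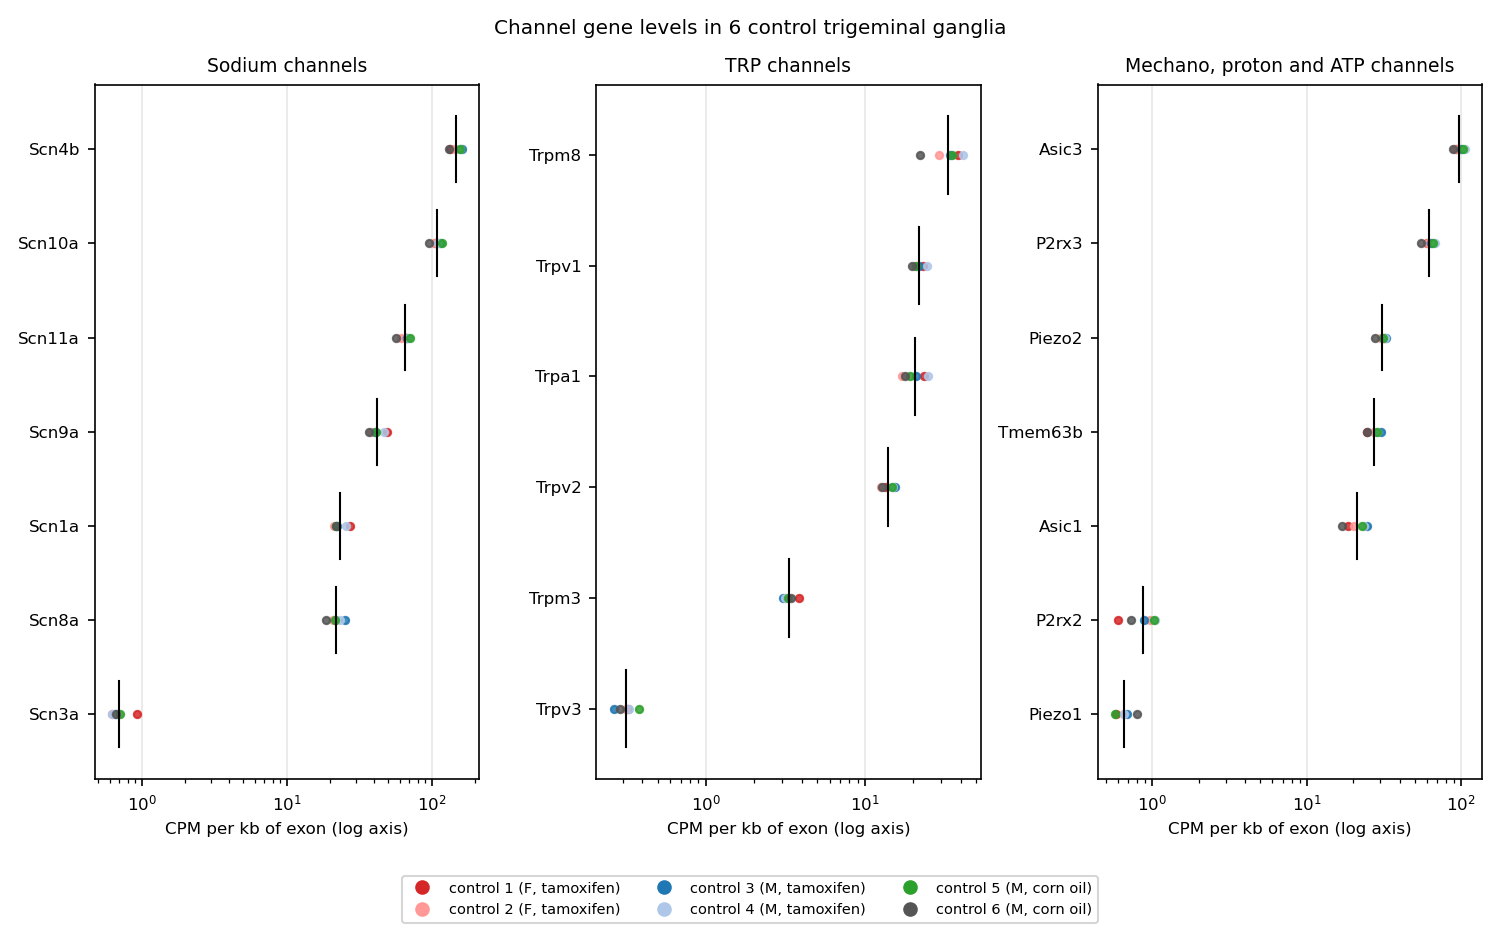
Level in CPM per kb of exon (log axis) of sodium channel, TRP channel and mechanosensitive, acid or ATP-gated channel genes named in the text, 1 coloured dot per control library as keyed and a black bar at the mean. Scn10a, Scn11a and Scn9a occupy separate ranges, Trpm8, Trpv1 and Trpa1 share a band of about 17.2 to 41.4, and Piezo2 lies far above Piezo1.

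Nearly all potassium channel genes were expressed, with 45 of 46 at 1 CPM or more in all libraries. Kcna2 (72.8 ± 4.44 CPM per kb) and Kcna1 (53.8 ± 3.84), the axonal channels beside the nodes, led with Kcnk1 (52.7 ± 2.14), Kcnd1 (46.1 ± 4.02) and Kcns3 (39.9 ± 2.76). All 21 calcium, HCN and anoctamin channel genes passed 1 CPM. The highest were Cacnb3 (57.7 ± 6.71), an accessory calcium channel subunit, the anoctamin gene Ano3 (48.5 ± 6.35) and the pacemaker channel gene Hcn2 (43.2 ± 7.23), in ranges that overlapped. Cacna1b, the channel that triggers transmitter release, had 18.6 ± 1.76, and Cacna2d1, the target of gabapentin, 16 ± 1.71.

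Of 46 transmitter-gated channel genes, 35 had at least 1 CPM in all libraries. The serotonin-gated channel gene Htr3a was highest with 80.4 ± 6.67 CPM per kb, and the glycine receptor gene Glrb next with 55.4 ± 5.4. Its pore-forming partners Glra1, Glra2 and Glra3 had 0.114, 0.15 and 0.0193. The kainate receptor gene Grik1 had 28.1 ± 3.07 and the AMPA receptor gene Gria4 16.9 ± 0.88. The NMDA receptor gene Grin1 had 13.3 ± 1.23, whereas its usual partners Grin2a and Grin2b had 0.0308 and 0.0354.

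Genes of glutamate transmission led the transmitter genes. The vesicular glutamate transporter gene Slc17a6 had 54.6 ± 3.74 CPM per kb, with 49 in control 6, a median of 54.2 and 58.8 in control 1, and Slc17a7 34 ± 4.12, with 28.6 in control 6, a median of 34.1 and 38.2 in control 3. Their ranges did not overlap. Genes that define other transmitters were near 0, with 0.00424 for the acetylcholine gene Chat, 0.00671 for the noradrenaline gene Dbh, 0.0137 for the dopamine transporter gene Slc6a3 and 0.253 for the GABA synthesis gene Gad2, which was highest in control 6 with 3.75 CPM.

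Of 38 neuropeptide and granin genes, 19 had at least 1 CPM in all libraries and 16 had a mean below 1 CPM. Calca exceeded the next gene, the granin gene Chga (94.2 ± 8.06 CPM per kb), without overlap. The granin genes Scg2 (84.4 ± 6.4) and Chgb (69.3 ± 4.39), which pack secretory granules, and the peptide genes Nmb (71.9 ± 6.99) and Tac1 (59.5 ± 4.71), the source of substance P, followed. Calcb, the second CGRP gene, had 46.3 ± 3.92, with 40.8 in control 2, a median of 46.9 and 50.5 in control 5. Adcyap1, which encodes the migraine peptide PACAP, had 18.3 ± 2.72, and Gal, a peptide induced by nerve injury, 10.1 ± 0.999. Npy (0.635) and Vip (0.697), peptides of autonomic nerves, were low. Pomc differed from all of these, with 106, 44.3, 10.1, 2.63, 1.92 and 2.39 CPM in controls 1 to 6, and is described with the pituitary genes.

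Receptors for trophic factors were all expressed, with 22 of 22 at 1 CPM or more. The neurotrophin co-receptor gene Ngfr led with 176 ± 22.2 CPM per kb, ahead of Ret and the cytokine receptor genes Il6st (45.3 ± 2.08) and Lifr (45 ± 1.97). Ntrk3 (14.2 ± 1.34) and Ntrk2 (12.9 ± 1.14), the receptors of proprioceptive and touch neurons, were lower than Ret without overlap. Of the Ret partners, Gfra1 had 32.5 ± 1.86, Gfra2 26.9 ± 3.15 and Gfra3 24.3 ± 3.13.

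Of 110 listed G protein-coupled receptor genes, 84 had at least 1 CPM in all libraries and 23 had a mean below 1 CPM. The GABA-B receptor genes Gabbr1 (56.5 ± 3.44 CPM per kb) and Gabbr2 (35.6 ± 3.35) were among the 3 highest, beside Gpr37l1 (43.5 ± 4.69), a receptor of satellite glia. The lipid receptor gene S1pr3 (32.3 ± 2.36) and Mrgprd completed the upper 5. Low members included the substance P receptor gene Tacr1 (0.131), the inducible bradykinin receptor gene Bdkrb1 (0.0575) and the dopamine receptor gene Drd4 (0.0114).

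The targets of migraine drugs differed widely. Among the receptors for triptans and related drugs, Htr1d had 12.8 ± 1.45 CPM per kb, with 10.1 in control 2, a median of 13.4 and 13.9 in control 3. Htr1b had 5.92 ± 0.573, with 4.83 in control 6, a median of 6.08 and 6.38 in control 5, and Htr1f 2.41 ± 0.641, with 1.69 in control 6, a median of 2.3 and 3.55 in control 1. These 3 ranges did not overlap. The CGRP receptor genes were lower than the peptide. Calcrl, its core, had 1.95 ± 0.361, and Ramp1, the subunit that gives it CGRP affinity, had 2.23 ± 1.43. Ramp1 measured 2.72, 8.29, 6.89, 3.35, 4.8 and 14.4 CPM in controls 1 to 6, the highest in control 6. Calcr, which can replace Calcrl, had 0.0506, a mean of 0.198 CPM. The PACAP receptor gene Adcyap1r1 had 3.51 ± 1.56.

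**Figure D3:**
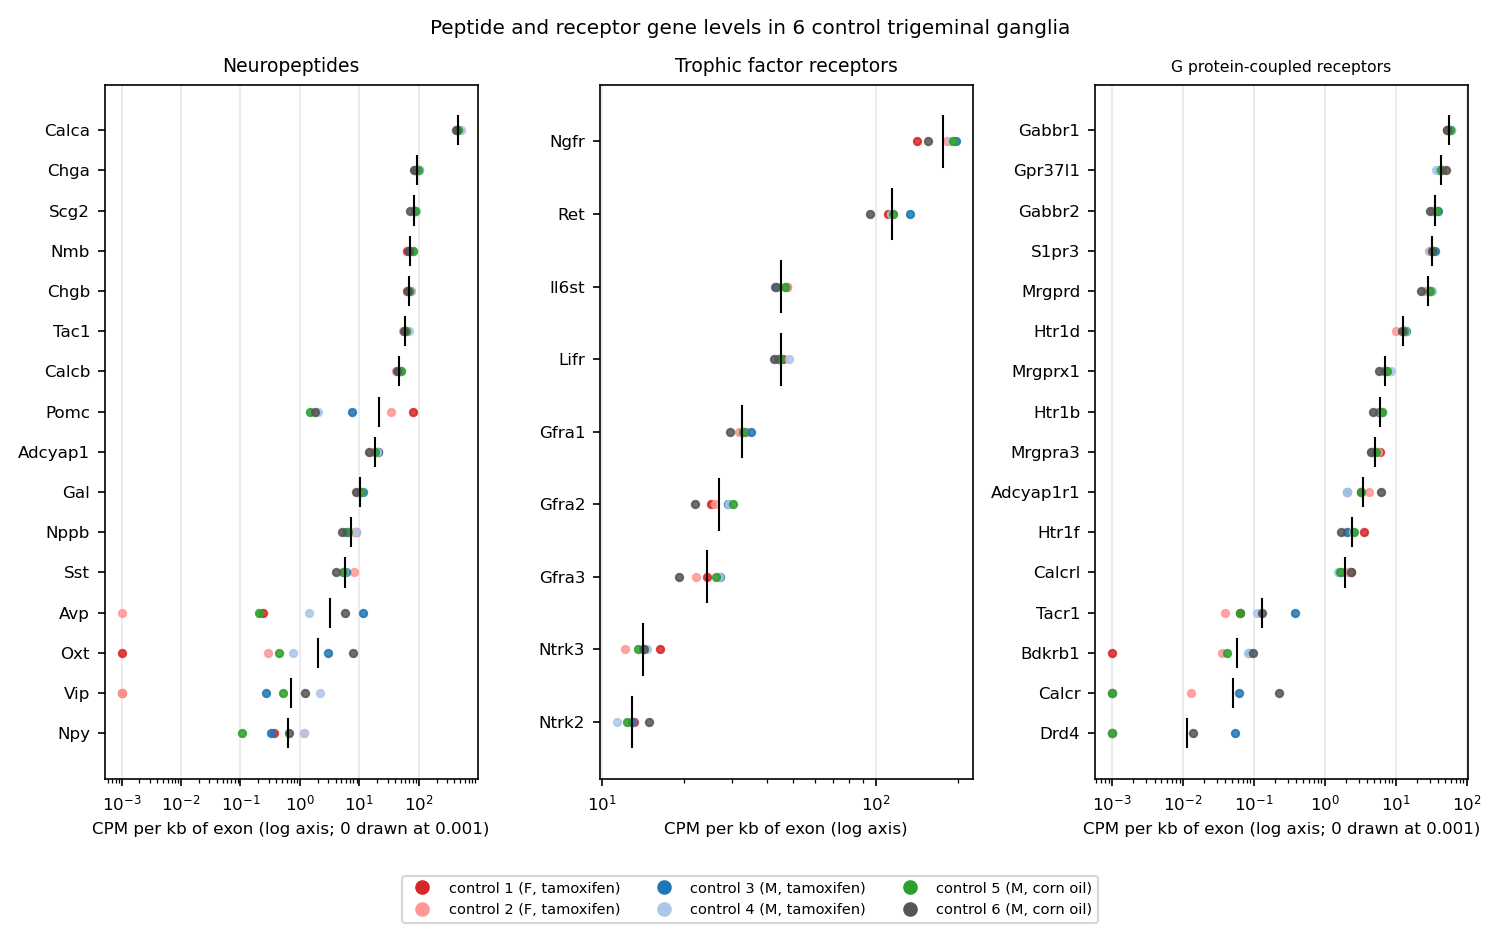
Level in CPM per kb of exon (log axis) of the neuropeptide, trophic factor receptor and G protein-coupled receptor genes named in the text, with 0 drawn at the left edge, 1 coloured dot per control library as keyed and a black bar at the mean. Calca stands apart at 462, while Pomc, Avp and Oxt spread over more than a factor of 10 between libraries.

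Glial genes differed widely in how even they were across the libraries. The Schwann cell myelin gene Pmp22 measured 1689 to 2081 CPM over the 6 libraries. Prx, which organises Schwann cell myelin, had 504 to 659.8 CPM, and the satellite and Schwann cell regulator gene Sox10 92.3 to 119.7 CPM. These ranges are narrow. Mbp measured 4098, 5324, 2531, 2786, 4832 and 7542 CPM in controls 1 to 6. It was highest in control 6, then control 2, and lowest in controls 3 and 4. The oligodendrocyte gene Mobp, a marker of central myelin, measured 316, 669, 119.9, 16.5, 467 and 1322 CPM, with control 6 again highest and controls 3 and 4 lowest. Mog, another such marker, had 22.2, 48, 7.08, 0.838, 28.9 and 78.6 CPM. The astrocyte genes Gfap and Aqp4, of which Gfap is also made by Schwann and satellite cells, ranged over 52.5 to 666 and 32.1 to 140.4 CPM. The summed level of the 13 central glia genes was 861, 1449, 545, 334, 1031 and 2263 CPM in controls 1 to 6, and no member was at 0 in any library. The summed level of 11 brain neuron genes was 132 to 169.6 CPM, but 1 of the 11 had a mean of at least 10 CPM and 5 were below 1 CPM, so this sum rests mainly on a single gene. The part of central glia genes in the spread of Mbp was not tested.

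Among satellite glia genes, Apoe was even over the libraries with 2547 to 2883 CPM. Glutamine synthetase, Glul, measured 339, 573, 345, 346, 349 and 587 CPM, with controls 2 and 6 apart from the other 4. The potassium channel gene Kcnj10, which clears potassium around the cell bodies, had 98.2, 129.8, 86, 59.7, 109 and 157 CPM, and the gap junction gene Gja1 53, 66.1, 38.5, 28.1, 58.8 and 100.5 CPM. Both were lowest in control 4 and highest in control 6, as was the sum of the central glia genes. All 15 satellite glia genes had at least 1 CPM in every library.

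Genes of connective tissue, vessels and macrophages were present. The prostaglandin synthase gene Ptgds, abundant in meninges, ranked 15 among all genes per kb and had 814 ± 238 CPM per kb, with 447 in control 4, a median of 883 and 1061 in control 6, and the matrix gene Dcn 127 ± 25.1. The pericyte gene Rgs5 had 31 ± 1.96 and the endothelial gene Cldn5 11 ± 2.29. Of macrophage genes the antigen presentation gene Cd74 had 86.4 ± 13.2 and the complement genes C1qa and C1qb 33.5 ± 8.61 and 31.5 ± 8.97. The T cell genes Cd3e and Cd8a had means of 0.835 and 1.16 CPM.

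Of 11 axon injury genes, 5 averaged 10 CPM or more and 3 below 1 CPM. Their summed level was 173 to 203 CPM. Atf3, which injured neurons switch on, had 6.5 to 8.91 CPM and Sprr1a a mean of 0.152 CPM. The immediate early genes Fos and Egr1, which handling can induce, measured 12.4, 12.6, 13.5, 7.84, 12.3 and 6.19 CPM and 29.5, 36.6, 28.4, 30.1, 27.4 and 15.8 CPM in controls 1 to 6. Control 6 was lowest for both.

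Most genes varied little between the control samples. Variation was taken as the coefficient of variation over the 6 libraries after removing the part that counting gives, for genes whose mean reached 10 CPM. The median over 10509 genes was 0.0636, and 8226 genes lay below 0.1. The steadiest genes with at least 100 CPM were Asb1 (105 to 108 CPM), Rab5a (98.5 to 101), Apbb2 (109 to 113), Adam9 (147 to 153), Dcaf8 (184 to 190.4), Rab10 (149.98 to 155), Zc3h7b (98.5 to 102), Hp1bp3 (202 to 211), Atp2c1 (159 to 167) and Samm50 (116 to 121). They were among 27 genes whose spread did not exceed that of counting, ordered by their measured spread.

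A variation above 0.5 was found for 112 genes (1.07%), and above 1 for 35. Of the 112, 87 were highest in control 6 and 14 in control 3, whereas over all 10509 genes control 6 was highest for 15.4% and control 3 for 17.7%. The share of the 112 highest in control 3, 12.5%, was thus below its share of all genes, and that of control 6, 77.7%, above. Without control 6 the count was 61, without control 3 it was 111, and without both it was 55. Of the 20 most variable named genes, 8 remained among the 20 without control 6, 14 without control 3 and 4 without both.

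Genes of neutrophils, red cells and marrow were high in control 6. S100a9, a neutrophil calcium-binding protein, measured 23, 54.9, 22.5, 39.1, 30 and 519.5 CPM in controls 1 to 6, and its partner S100a8 14.3, 33.6, 14.8, 25.2, 17.5 and 299 CPM. The granule genes Camp, Ngp, Mpo and Lcn2 had 144, 273, 56.4 and 93 CPM in control 6. In the other libraries their highest values were 14.7, 35.8, 6.54 and 14.7 CPM, all in control 2. Retnlg, Chil3 and the platelet gene Ppbp followed the same order, with 44.2, 73.3 and 52.8 CPM in control 6 and 6.69, 9.06 and 5.46 in control 2. Haemoglobin genes Hbb-bs, Hbb-bt and Hba-a1 had 485, 129 and 115 CPM in control 6 and 14.9, 3.98 and 3.7 in control 1, the lowest. Markers of dividing marrow cells moved with them: the summed level of 11 progenitor genes, a list drawn up after seeing the values, was 17.4, 36.1, 18.6, 21.3, 25.7 and 240.4 CPM in controls 1 to 6. The muscle gene Acta1 was also highest in control 6, with 106 CPM against 8.82 to 25.9.

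Genes of airway lining and glands were high in control 3. The secreted airway proteins Bpifb1 and Bpifa1 measured 14, 74.7, 447, 29.2, 4.74 and 14.1 CPM and 9.22, 16.3, 374, 86.9, 38.7 and 27.3 CPM in controls 1 to 6. The mucin gene Muc5b had 4.33, 4.48, 171, 27.8, 4.68 and 32.8 CPM, and the mucosal defence gene Dmbt1 2.17, 14.7, 148, 5.27, 0.18 and 2.44 CPM. Lyz1, Sec14l3 and Lipf had 84.7, 62.3 and 84.9 CPM in control 3. Control 4 was second for Sec14l3 (8.74 CPM) and control 2 for Lyz1 (13.6) and Lipf (25.5). Foxj1, the regulator of cilia, measured 16.8, 23, 43.1, 25.1, 24.7 and 22.8 CPM.

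Hormone genes of the pituitary, which lies beside the ganglion, formed another set. Prl, the prolactin gene, measured 37.9, 304, 0.985, 2.81, 17.4 and 0.985 CPM in controls 1 to 6, and Gh, the growth hormone gene, 38.8, 332, 15.1, 17.6, 124 and 4.59 CPM. Both were highest in control 2, and Pomc was highest in control 1. Avp and Oxt, the hormone genes carried to the posterior lobe, were highest in control 3 (6.65 CPM) and control 6 (4.17 CPM). The summed level of 11 pituitary genes ran from 20.1 CPM in control 6 to 688 in control 2. The blood, airway and pituitary genes thus peaked in different libraries. Their source was not tested.

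**Figure D4:**
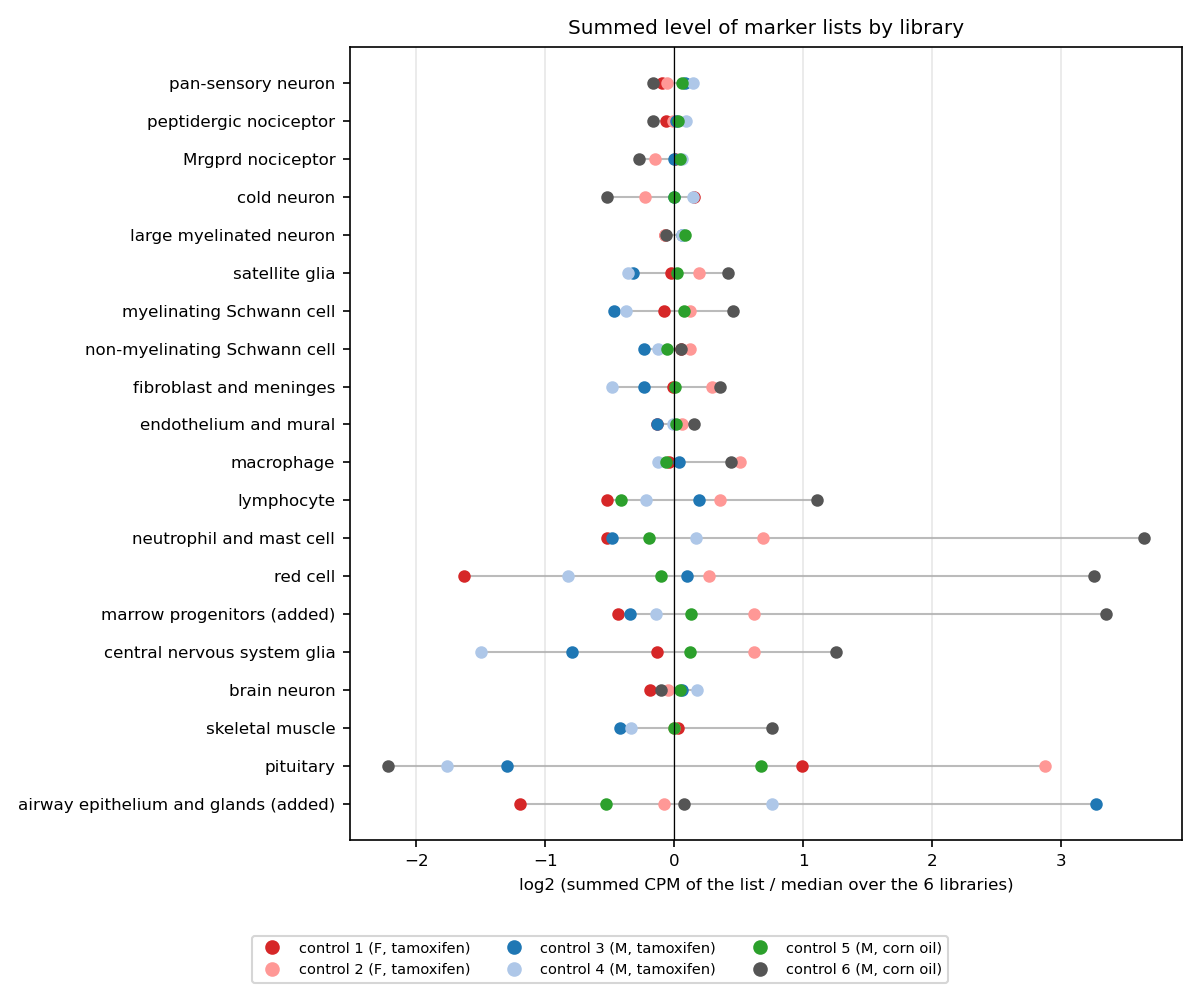
Summed CPM of marker lists in each control library, as log2 of the ratio to the median of the 6 libraries. The skeletal muscle list includes Pvalb, its highest member, which also marks large myelinated neurons. Neuronal lists lie within a narrow band around 0, blood, marrow and neutrophil lists reach furthest right in control 6, the airway list in control 3 and the pituitary list in control 2. The marrow and airway lists were drawn up after the values were seen.

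The circadian clock genes varied in a different manner. In the clock, Clock or Npas2, paired with Arntl, drives the Per and Cry genes, whose proteins shut the drive off, while Nr1d1 and Nr1d2 repress Arntl. Levels of these genes are known to change over the day, the labels do not give the hour of dissection, and its part was not tested. Per1 measured 23.8, 60.3, 20.7, 44.6, 22.3 and 50.2 CPM in controls 1 to 6, and Per2 8.38, 21.4, 9.36, 16, 8.88 and 21 CPM. Per3 had 22.6, 37.3, 22.7, 37.7, 24.3 and 49.7 CPM, and Dbp, an output factor, 7.9, 27.6, 11, 25.7, 12.8 and 29.5 CPM. All 4 genes were higher in each of controls 2, 4 and 6 than in any of controls 1, 3 and 5. Arntl had 8.87, 6.38, 10.2, 3.95, 9.78 and 5.34 CPM and Npas2 3.98, 3.5, 4.92, 3.17, 3.9 and 2.25 CPM, and both were lower in each of controls 2, 4 and 6. Fabp7 was likewise lower in each of controls 2, 4 and 6, with 307, 163, 265, 147, 294 and 121 CPM. Tef (122, 167, 135, 157, 131 and 159.9 CPM), Hlf (16.6, 30.6, 17.7, 21, 17.4 and 26.4 CPM) and Nr1d2 (87.8, 105, 76.4, 103, 83.2 and 108 CPM) were higher in each of controls 2, 4 and 6. Ciart, a repressor of the clock, had 2.72, 3.81, 3.39, 5.51, 2.04 and 6 CPM and was also higher in controls 2, 4 and 6. Nr1d1 measured 19.7, 46.8, 30.5, 32, 29.1 and 32.7 CPM, with control 2 highest and control 1 lowest. Cry1, Cry2 and Clock had a variation of 0.0808, 0.0705 and 0.11, against 0.497 for Dbp and 0.456 for Per1. The 3 libraries on either side of this order include both sexes and both injections, and what the sample numbers stand for is not given in the labels.

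Promoters of genes in this set are shown because clock factors bind known short motifs. The 250 bases before the transcription start were taken from RefSeq (build GRCm38.p6), and both strands were searched for the E-box CACGTG, the D-box TTATGTAA and the REV-ERB element TAGGTCA. Matches on either strand are in capitals. Ciart held 3 E-boxes (chr3:95882229-95882478, minus strand), Per1 1 E-box at the first of its starts (chr11:69098699-69098948, plus strand), Per3 2 D-boxes (chr4:151044666-151044915, minus strand) and Fabp7 1 REV-ERB element (chr10:57784673-57784922, plus strand).
Ciart: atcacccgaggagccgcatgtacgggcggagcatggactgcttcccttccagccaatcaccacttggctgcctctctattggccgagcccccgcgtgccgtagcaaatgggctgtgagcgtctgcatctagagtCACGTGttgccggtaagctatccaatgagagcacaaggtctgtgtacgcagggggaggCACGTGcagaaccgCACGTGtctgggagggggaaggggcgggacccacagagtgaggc
Per1: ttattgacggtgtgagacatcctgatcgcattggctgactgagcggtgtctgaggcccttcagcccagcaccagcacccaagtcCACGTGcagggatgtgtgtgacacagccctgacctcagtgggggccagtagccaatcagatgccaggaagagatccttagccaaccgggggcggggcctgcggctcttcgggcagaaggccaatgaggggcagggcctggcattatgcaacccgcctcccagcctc
Per3: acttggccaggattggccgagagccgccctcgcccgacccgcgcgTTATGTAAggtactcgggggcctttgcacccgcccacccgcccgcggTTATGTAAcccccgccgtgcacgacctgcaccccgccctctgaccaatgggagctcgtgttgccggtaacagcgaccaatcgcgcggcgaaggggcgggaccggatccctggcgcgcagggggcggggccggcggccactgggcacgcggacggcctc
Fabp7: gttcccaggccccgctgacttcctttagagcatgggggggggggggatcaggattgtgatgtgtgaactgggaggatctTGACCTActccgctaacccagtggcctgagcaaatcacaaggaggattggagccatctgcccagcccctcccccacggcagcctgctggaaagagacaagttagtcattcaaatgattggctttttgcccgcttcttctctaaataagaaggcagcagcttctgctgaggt
Of 14 clock genes with an entry, 5 held an E-box (Ciart, Per1, Tef, Cry1 and Bhlhe41), 1 a D-box and 0 the REV-ERB element. Of all 32851 promoters of this length, 6.02% held the E-box, 0.819% the D-box and 2.23% the REV-ERB element. These shares count each start apart, whereas a clock gene was counted if any of its starts had a match, so the units differ. The genes and motifs were picked after the levels were seen, and a match describes letters, not binding.

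**Figure D5:**
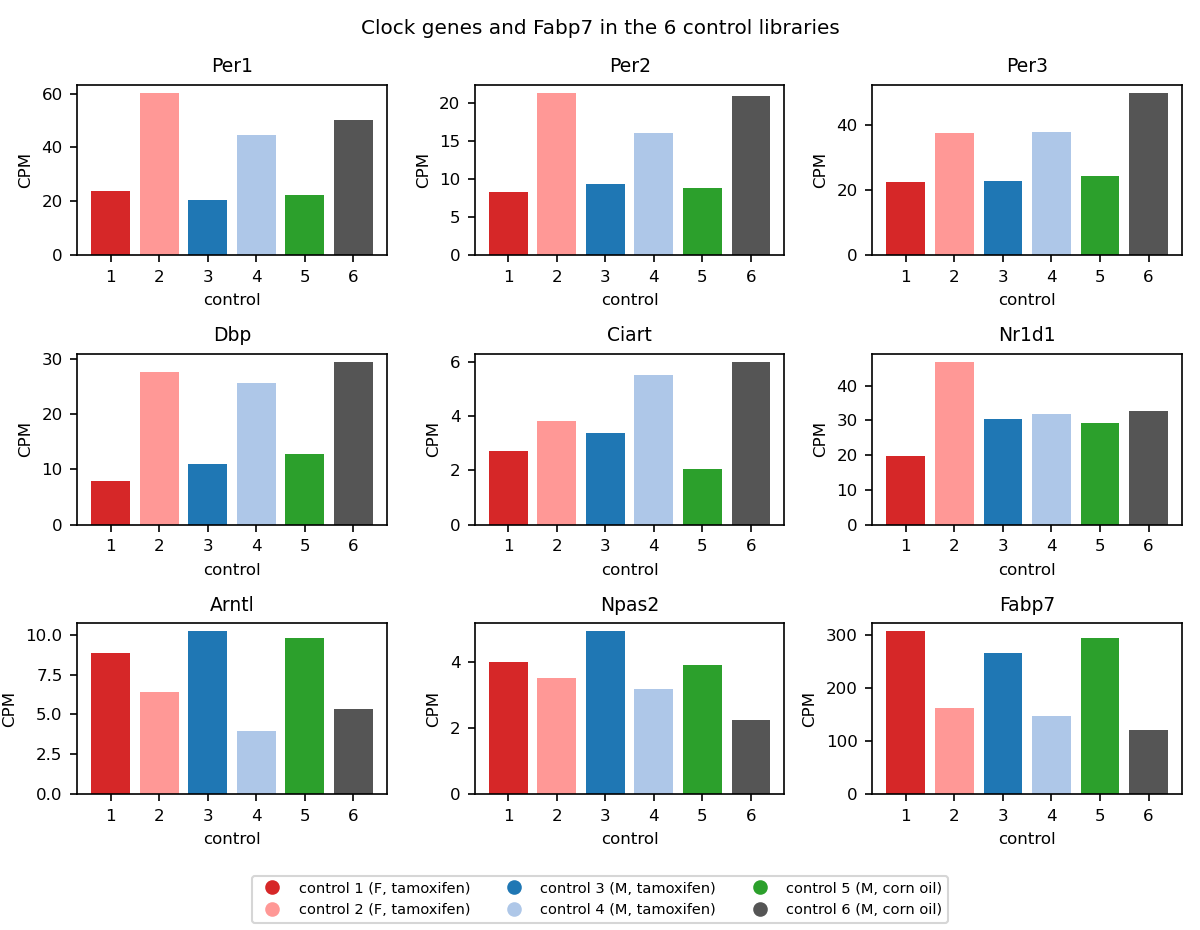
Level in CPM of 8 clock genes and Fabp7 in each of the 6 control libraries, 1 bar per library with the axis from 0. Per1, Per2, Per3 and Dbp are higher in controls 2, 4 and 6, and Arntl, Npas2 and Fabp7 are higher in controls 1, 3 and 5.

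The labels allow 2 comparisons among the controls. The 2 females were compared with the 4 males, with injection as a covariate. Both corn oil samples are male, so the fitted difference is that of controls 1 and 2 from controls 3 and 4, while controls 5 and 6 add to the estimate of the spread. In edgeR's quasi-likelihood test 7 of 17230 genes passed an adjusted p of 0.05 (0.0406%), 2 higher (0.0116%) and 5 lower (0.029%) in females, and 1165 had an unadjusted p below 0.05. Xist, the RNA that silences an X chromosome, measured 651, 472, 0.8, 0.958, 0.54 and 1.41 CPM in controls 1 to 6. It was 9.30 ± 0.32 (SE) higher in females on the log2 scale, with an edgeR adjusted p of 4.84e-05. Each SE given with a log2 difference was derived from the test's F statistic. The Y-linked genes Ddx3y, Uty, Eif2s3y and Kdm5d had 80.4 to 90.4, 29.9 to 34.7, 40.3 to 51.1 and 22.7 to 30 CPM in males and at most 0.0699 CPM in females (edgeR adjusted p at most 0.000118), so every library matched its labelled sex. The predicted gene Gm29650 had no count in females and 4.08 to 5.33 CPM in males (edgeR adjusted p = 0.00989). Gm32122, also a predicted gene, measured 7.34 and 7.46 CPM in the females, 0.554 and 0.18 in the tamoxifen males and 8.1 and 12.7 in the corn oil males (edgeR adjusted p = 0.0429). It was low only in controls 3 and 4, where the central glia genes were also lowest, and their part in its call was not tested. With no covariate its log2 difference was 0.44, with an edgeR adjusted p of 0.988. Of X-linked genes known to escape silencing, Kdm6a measured 53.8, 51.5, 30.4, 30.5, 33.1 and 37.9 CPM and Kdm5c 77.6, 81.1, 55.3, 55.6, 57.6 and 55.3 CPM. Each was higher in both females than in any male, and neither passed the test (edgeR adjusted p = 0.124 and 0.295).

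Between the sexes the call count changed with the samples and the tool. Without control 4 it was 64, of which 62 were lower in females, a fit in which control 3 alone stood for the tamoxifen males. Without control 5 it was 17, and without control 6 it was 15. DESeq2 called 183 genes, 83 higher and 100 lower. Without controls 3 and 6 edgeR called 169, with control 4 as the lone tamoxifen male.

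No gene of the neuronal, channel, peptide, receptor, glial, vessel or immune lists passed the edgeR test between the sexes with all 6 libraries. Without control 5, 17 of 18054 genes passed, and without control 6, 15 of 17771. Among them in each fit were 1 of 15 satellite glia, 1 of 16 myelinating and 1 of 8 non-myelinating Schwann cell genes. Control 4 is the lone tamoxifen male in the fit without controls 3 and 6. In that fit genes of the neuropeptide, potassium channel, trophic factor receptor, fibroblast and central glia lists also passed, among others. DESeq2 called 183 of 17230 genes. Among them were 2 of 38 neuropeptide genes, 1 of 18 mechano, proton and ATP channel genes, 1 of 16 myelinating and 2 of 8 non-myelinating Schwann cell genes. It also called 2 of 13 fibroblast and meninges genes, 2 of 13 central glia genes, 3 of 12 skeletal muscle genes and 2 of 11 pituitary genes. Of airway epithelium and gland genes it called 7 of 17, all lower in females. The airway list was drawn up after the values were seen, so its calls here are no test of the sexes. With no filter on low counts edgeR called 801 of 33374 genes. Among them were 9 of 13 central glia, 7 of 16 myelinating Schwann cell, 7 of 13 fibroblast and meninges and 6 of 15 satellite glia genes, all higher in females. Of neuropeptide genes it called 5 of 38, 1 of them higher. Of skeletal muscle genes it called 8 of 12, 7 of them higher, and of pituitary genes 7 of 11, 5 of them higher. Of airway epithelium and gland genes 16 of 17 were called, all lower. The median log2 fold change, females over males, was -0.17 for 17 pan-sensory neuron genes (1 above 0), against 0.01 for all genes tested. It was -0.09 for 14 sodium channel genes (4 above 0) and -0.08 for 46 potassium channel genes (15 above 0). Other neuronal lists had medians above 0, with 0.19 for 8 Nppb and Sst itch neuron genes (6 above 0) and 0.11 for 5 cold neuron genes (3 above 0). The median was 0.39 for 15 macrophage genes (15 above 0) and 0.43 for 13 fibroblast and meninges genes (13 above 0). It was 1.79 for 13 central nervous system glia genes (13 above 0), and these genes were lowest in the male controls 3 and 4. It was 1.94 for 7 pituitary genes (5 above 0), with control 2 the highest library. It was -3.20 for 17 airway epithelium and gland genes (1 above 0), with control 3 the highest library. The olfactory list had -0.82 for 6 olfactory epithelium genes (0 above 0). The airway and olfactory lists were drawn up after the values were seen, so their medians are no test of the sexes.

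The corn oil controls 5 and 6 were compared with the 4 tamoxifen controls, with sex as a covariate. As both are male, the fitted difference is that of controls 5 and 6 from controls 3 and 4, so both comparisons have controls 3 and 4 as their reference. In edgeR's quasi-likelihood test 0 of 17230 genes passed an adjusted p of 0.05 (0%), and 1314 had an unadjusted p below 0.05. DESeq2 called 188, of which 166 were higher with corn oil. Without control 5 edgeR called 463 of 18054 genes, 456 of them higher, and without controls 3 and 6 it called 70. In these fits control 6 or control 5 is the lone corn oil sample and is assumed to vary like the other groups, and in the second only 4 samples are left, so they describe single libraries. Both corn oil samples carry 2 floxed alleles and Cre, so injection and genotype cannot be told apart.

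The genes with the smallest p-values were low in controls 3 and 4 or high in controls 5 and 6. Gm32122, described above, differed by 4.81 ± 0.43 (SE) on the log2 scale, corn oil over tamoxifen, with an edgeR adjusted p of 0.132. With no covariate, which takes all 4 tamoxifen samples as the reference, the difference was 1.42, with an edgeR adjusted p of 0.967. Ifit3, which interferon induces, measured 17.7, 14.6, 12.9, 11.1, 28.2 and 30.1 CPM in controls 1 to 6, a log2 difference of 1.28 ± 0.14 (SE) with an edgeR adjusted p of 0.155. Its values in both corn oil samples exceeded all tamoxifen samples. Enpp6, an oligodendrocyte gene, measured 11.3, 16, 2.09, 1.74, 13 and 25.2 CPM, and Atp2a1, the calcium pump of fast muscle, 10.3, 9.63, 4, 4.43, 12.3 and 16.9 CPM (edgeR adjusted p = 0.155 and 0.155). The predicted gene AC122117.2 measured 4.96, 5.66, 0.862, 0.479, 5.04 and 9.33 CPM (edgeR adjusted p = 0.209).

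By list, the median log2 fold change of corn oil over tamoxifen was -0.15 for 17 pan-sensory neuron genes (0 above 0), against -0.01 for all genes tested. It was -0.13 for 14 sodium channel genes (1 above 0) and -0.09 for 19 TRP channel genes (5 above 0). It was 2.69 for 5 red cell genes (5 above 0), 2.78 for 12 neutrophil and mast cell genes (8 above 0) and 2.21 for 13 central nervous system glia genes (13 above 0). In these 3 lists control 6 held the highest sum. Control 5 had 81.7, 96.1 and 1031 CPM, within the range of all tamoxifen samples. Beside the reference controls 3 and 4 alone, control 5 lay between them for the red cell and neutrophil sums. For the central glia sum control 5 exceeded both, as control 3 had 545 and control 4 had 334 CPM. In the other direction, the median was -2.38 for 17 airway epithelium and gland genes (0 above 0) and -0.88 for 6 olfactory epithelium genes (0 above 0), with control 3 in the reference. The airway and olfactory lists were drawn up after the values were seen, so these medians are no test of injection.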

How the data were processed

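Polyadenylated RNA of trigeminal ganglia was sequenced from unstranded TruSeq libraries, per the labels' protocols. The authors deposited whole-number read counts per gene, from STAR 2.7.8a and featureCounts 2.0.1 after bcl2fastq 2.20.0.422, with build GRCm39, per the submitters' processing notes. The annotation release and the counting options were not given in the sources used here. Rows without a symbol in the annotation used here held 0.159% to 0.309% of the counts.

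From the counts, TMM-scaled CPM were computed with edgeR 4.0.16 in R 4.3.3. CPM were divided by the union exon length in GENCODE M21, a GRCm38 annotation used only for names, lengths and overlaps. Variation is the coefficient of variation with the counting part removed. Groups come from the labels. Tests used edgeR's quasi-likelihood fit with sex and injection as terms, filterByExpr and Benjamini-Hochberg adjustment at 0.05. The SE of a log2 difference is its absolute value divided by the square root of the F statistic, not a separate estimate. DESeq2 1.42.0, other scalings, filters and covariates, and leaving out libraries were alternatives. Simulated counts were drawn for 17230 genes, each gene independent of the others. On these the comparison of sexes recovered 70% of 2-fold and 96% of 4-fold changes with 11 false calls, and that of injections 64% and 94% with 19. Genes that move together in single libraries, as in these data, were not simulated, so these rates need not hold for the real tests.

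Genes were named by a rule: the 5 marker genes, the 20 highest CPM values, up to 5 leading and 3 low members of each list, the 20 most and 10 least variable genes, and all called genes or the 5 smallest p-values. Other genes were chosen after their values were seen. The members and lists were chosen with earlier results of these data known, and the airway, olfactory and marrow lists, the motifs and the promoters after the values were seen. The olfactory list's 6 genes summed to 285 to 408 CPM over the libraries, and 1 list entry, Tafa4, matched no symbol. Some genes that the rule would name are not reported here and not drawn. The knockout libraries were not analysed here.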

Additional observations from a re-analysis of the deposited data

Results flagged for a closer look

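Of 252 gene levels and list sums tested over the 6 control libraries, 40 had a highest or lowest library separated from its nearest neighbour by a larger share of the whole range than Dixon's 95% limit, which chance passes in about 1 in 20 groups. Many of these genes move together or were named for their variation, so the count is not one of independent values. Control 6 was the highest library for the neutrophil and platelet genes S100a9 (519.5 CPM, next 54.9), S100a8 (299 CPM, next 33.6), Camp (144 CPM, next 14.7), Ngp (273 CPM, next 35.8), Mpo (56.4 CPM, next 6.54), Lcn2 (93 CPM, next 14.7), Retnlg (44.2 CPM, next 6.69), Chil3 (73.3 CPM, next 9.06) and Ppbp (52.8 CPM, next 5.46), where next is the nearest other library. It was also highest for the haemoglobin genes Hbb-bs (485 CPM, next 57.9), Hbb-bt (129 CPM, next 18.1) and Hba-a1 (115 CPM, next 13.7) and for the muscle gene Acta1 (106 CPM, next 25.9). Its list sums stood apart for neutrophil and mast cell (1378 CPM, next 178), red cell (839 CPM, next 106), marrow progenitors (240.4 CPM, next 36.1) and skeletal muscle (365 CPM, next 219.9). The marrow list was drawn up after the values were seen, so passing the limit is no test of it. The highest member of the skeletal muscle list was Pvalb, which also marks large myelinated neurons.

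Control 3 was the highest library for the airway and gland genes Bpifb1 (447 CPM, next 74.7), Bpifa1 (374 CPM, next 86.9), Muc5b (171 CPM, next 32.8), Dmbt1 (148 CPM, next 14.7), Lyz1 (84.7 CPM, next 13.6), Sec14l3 (62.3 CPM, next 8.74), Lipf (84.9 CPM, next 25.5) and Foxj1 (43.1 CPM, next 25.1), and for the sum of airway epithelium and glands (1881 CPM, next 329). The airway list was likewise drawn up after the values were seen, so its sum passing the limit is no test. Control 2 was highest for the hormone genes Prl (304 CPM, next 37.9) and Gh (332 CPM, next 124) and for the sum of pituitary (688 CPM, next 187) genes.

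The remaining values were single genes of other lists. Control 6 was highest for Spp1 (259.6 CPM, next 168) and Calcr (0.891 CPM, next 0.246) and lowest for Scg2 (181 CPM, next 214) and Htr1b (22.8 CPM, next 27.6). Control 1 was highest for Scn3a (11.5 CPM, next 8.82), Glrb (306 CPM, next 263) and Clock (132 CPM, next 105). Control 2 was highest for Sox10 (119.7 CPM, next 102). Control 3 was highest for Tacr1 (2.46 CPM, next 0.844) and Drd4 (0.185 CPM, next 0.0469) and control 4 for Chat (0.12 CPM, next 0), and Drd4 and Chat rest on fewer than 10 counts in all.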

How the results depend on the processing

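The count of expressed genes and the levels moved little with the libraries used. The number of genes with at least 1 CPM in all libraries was 14463, and 14508 to 14542 when 1 library was left out. It was 15527 for a mean of at least 1 CPM, 15706 at 0.5 CPM and 11569 at 5 CPM. List members with a mean of at least 1 CPM numbered 569, and 565 to 574 with 1 library left out. Without gene length, 30 of 41 lists kept their highest member. The median variation was 0.0636, and 0.0529 to 0.0664 with 1 library left out.

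The test counts were less stable. Between the sexes, 7 calls became 801 with no filter on low counts, 183 with DESeq2, 13 in the tamoxifen controls alone and 169 without controls 3 and 6, a choice made after seeing the data. Leaving out 1 library gave 5 to 64. Between injections, 0 calls became 1206 with no filter, 188 with DESeq2 and 70 without controls 3 and 6, and 0 to 463 with 1 library left out. The cause was not tested. The call of Gm32122 between the sexes was lost in 5 settings and that of Gm29650 in 3. In those settings the log2 difference was 0.441 to 5.31 for Gm32122, lowest with no covariate, and -9.56 to -9.37 for Gm29650. No paired analysis was possible because only controls were compared, and replicate numbers are shared between controls and knockouts alone. With 2 samples in the smaller group, the simulated data recovered 22% and 24% of changes of 1.5-fold.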
